A study of Mus musculus with 4 samples.

Results

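Chromatin accessibility was measured by ATAC-seq, in which the Tn5 transposase cuts open DNA, so that more reads at a place stand for more open chromatin. RAW macrophages, a mouse macrophage cell line, were studied in 2 control samples, which had no treatment, and in 2 samples kept for 1 hr with methyl-β-cyclodextrin (MCD), a ring of sugars that draws cholesterol out of membranes, at 5 mM. The deposited table of differential accessibility holds 3812 intervals of 201 bp and gives, for each, the authors' mean of normalized reads in each condition on the log2 scale. The intervals described here hold the 7-bp AP-1 site, TGACTCA or TGAGTCA, and were already open in control. They also lie more than 3 kb from every counted transcription start site (TSS). Start sites of annotated transcripts that lack an Entrez number were not counted. Of the 3812 intervals, 658 met all these conditions. When the start sites of all annotated transcripts were counted, 592 of the 658 still did. Open in control was set as a control level of at least 4.5 on the log2 scale, which is 22.6 normalized reads, so the members were chosen by their measured control level together with their sequence and place.

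AP-1 is a dimer of basic leucine zipper proteins, mostly of the Jun and Fos families, that binds this palindrome. Its genes and proteins respond within minutes to growth factors, stress and inflammatory signals through MAP kinases, and much of its binding lies in enhancers far from promoters. In macrophages AP-1 sites are common in the enhancers that the lineage factor PU.1 keeps open before any stimulus.

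Every value below rests on the authors' condition means. No value per sample was used, so no spread between replicates and no depth per sample can be given. The labels do not say whether the 2 samples of a condition came from separate cultures. All comparisons are descriptions of the authors' means, with no test. A level is the authors' log2 mean turned back into normalized reads. A difference is the log2 level after MCD minus the log2 level in control. The table lists only intervals that the deposited comparison called changed, and open AP-1 intervals that stayed level were not analysed here. For the same reason the macrophage identity of the cells could not be checked on marker genes.

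The intervals differed widely in level and in what they gained or lost. The sequences below are 3 members higher after MCD and 2 members lower after MCD, shown on the plus strand of GRCm38 with the AP-1 sites in capitals. They are the member with the highest control level of those that were higher (Cd53, chr3:106785214-106785414), the 2 with the largest differences (Gm11959, chr11:4308661-4308861, and Basp1, chr15:25272039-25272239), the member with the highest control level of those that were lower (Cadps, chr14:13001288-13001488) and the one that lost most (Tmem38b, chr4:53864658-53864858). Each is named after the gene with the nearest TSS.
Cd53: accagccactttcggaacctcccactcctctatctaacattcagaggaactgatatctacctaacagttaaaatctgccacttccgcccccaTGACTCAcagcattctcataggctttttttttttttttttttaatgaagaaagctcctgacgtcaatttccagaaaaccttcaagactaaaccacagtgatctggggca
Gm11959: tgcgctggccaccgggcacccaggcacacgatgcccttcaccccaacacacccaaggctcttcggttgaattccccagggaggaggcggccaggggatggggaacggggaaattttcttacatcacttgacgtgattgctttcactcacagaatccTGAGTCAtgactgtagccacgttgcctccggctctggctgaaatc
Basp1: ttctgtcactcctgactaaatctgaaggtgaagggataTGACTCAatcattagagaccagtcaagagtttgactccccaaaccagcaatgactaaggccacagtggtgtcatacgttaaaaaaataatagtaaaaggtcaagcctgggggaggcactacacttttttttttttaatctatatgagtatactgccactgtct
Cadps: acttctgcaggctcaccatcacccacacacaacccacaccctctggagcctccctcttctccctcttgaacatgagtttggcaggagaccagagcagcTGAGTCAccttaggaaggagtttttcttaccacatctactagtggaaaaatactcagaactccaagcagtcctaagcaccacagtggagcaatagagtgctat
Tmem38b: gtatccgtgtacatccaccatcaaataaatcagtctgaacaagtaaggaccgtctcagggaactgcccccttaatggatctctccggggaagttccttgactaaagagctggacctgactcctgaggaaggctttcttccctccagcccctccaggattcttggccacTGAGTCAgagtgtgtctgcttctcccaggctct

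After MCD, 640 of the 658 members were higher and 18 were lower. The share of members that were higher was 97.3%, beside 73.2% of all intervals of the table. At least 2-fold higher were 426 members, 64.7%, beside 57.3% of the table. Since the control level entered the choice of the members, nothing is read from these shares. The control level of the members had a median of 49.0 normalized reads, a 25th to 75th percentile of 33.4 to 76.0 and a full range of 22.8 to 280. After MCD the median was 114 reads, the 25th to 75th percentile 82.4 to 148 and the full range 10.2 to 311. The difference had a median of 1.12, which is a 2.17-fold gain. Reads in control are fixed by the rule and are no finding about the members.

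**Figure D1:**
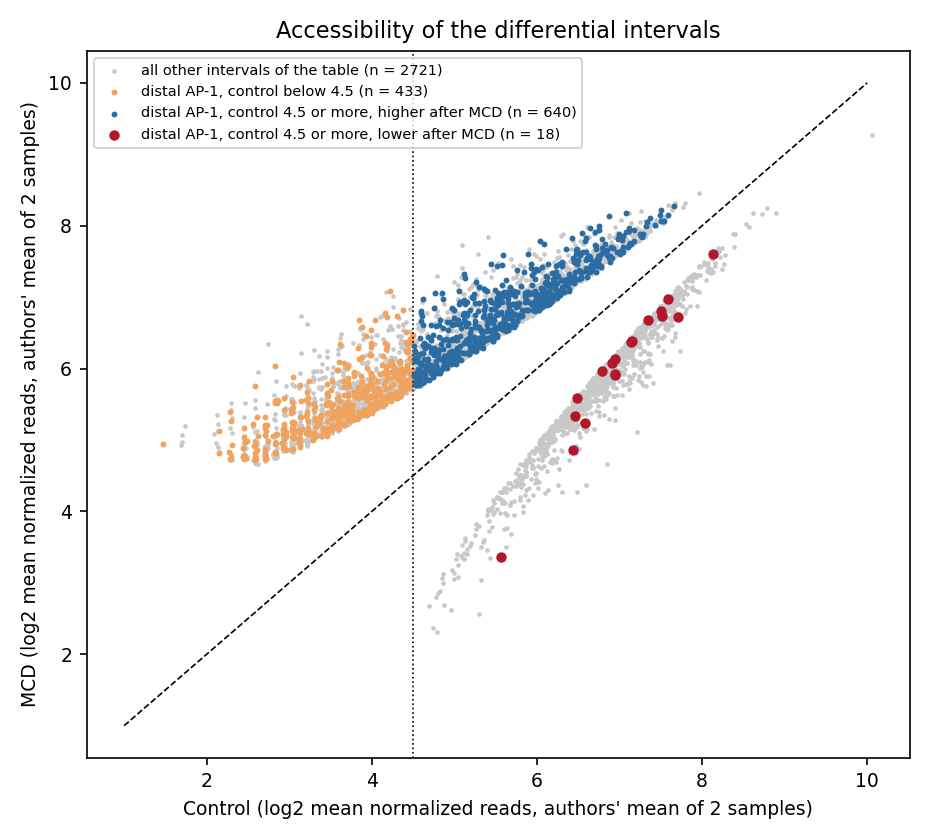
Authors' mean level in control (x axis) and after MCD (y axis), both as log2 normalized reads, for each member and for the other intervals of the table, with the line of equal levels and the control threshold of 4.5. Of the members, 640 lie above the line of equal levels and 18 below it.

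The remaining distal AP-1 intervals of the table, 433 with a control level under the threshold, were higher after MCD in every case. An interval with few reads in control could enter a table of changed intervals almost only by a high level after MCD, so this count and the size of the differences follow from how the table was made. They went from a median of 13.1 to 45.3 reads, a median difference of 1.82, and their median after MCD was still below the control median of the members. Distal intervals that passed the same control threshold but held no AP-1 site numbered 1538, with a control median of 79.9 reads against 49.0 in the members, and 690 of them were higher after MCD. Those 690 moved from a median of 48.9 to 113 reads, with a median difference of 1.13. The 640 higher members moved from 48.4 to 116 reads, with the same median difference of 1.13. Where an open distal interval was higher, the median gain was therefore alike with and without the AP-1 site. Both sets passed the same control threshold, the same call of change and the same direction, so nothing is read from this likeness.

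Among the higher members the difference was smaller where the control level was higher. The 146 members with a control level from 4.5 to 5 went from a median of 26.5 to 70.1 reads, a median difference of 1.38. For the 275 members from 5 to 6 it was 1.17, for the 188 members from 6 to 7 it was 0.87, and for the 31 members at 7 or above it was 0.64. Higher open intervals without the site, in the same 4 ranges, had medians of 1.34, 1.14, 0.86 and 0.64. The smallest difference in the lowest range was 1.10 and in the highest range 0.52, so the table lists smaller differences where there are more reads, and the part of this in the slope was not tested.

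The most open members included both directions. Of the 10 members with the highest control level, 5 were lower after MCD. Among them were the first, Cadps, which fell from 280 to 195 reads, and the second, Ube2e3, from 209 to 106. Of the 690 higher open distal intervals without the site, 34 had a control level of 7 or above. The 848 lower ones had a 75th percentile of 7.31. Lower intervals were thus common at such levels without the site too, and nothing is read from the 5 of 10. The most open member that was higher was the Cd53 interval, in intron 1 of the gene for a tetraspanin of leukocytes, at 203 reads in control and 311 after MCD. The intervals of S100a10, an annexin partner, Pdgfb, a growth factor chain, and Atg13, part of the kinase complex that starts autophagy, followed. They went from 193 to 284, from 185 to 267 and from 186 to 267 reads. Their differences of 0.56, 0.53 and 0.52 were the smallest among the higher members.

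Members near the threshold had the largest differences. The Gm11959 interval went from 24.6 to 126 reads, a difference of 2.36, and the Basp1 interval from 27.3 to 133, a difference of 2.29. Slfn2, a Schlafen family gene of immune cells, had an interval 20931 bp upstream of its TSS that went from 24.2 to 112 reads. The Dcbld2 and Prelid3b intervals went from 34.8 to 160 and from 29.0 to 133. Each of these 5 began below the control median of the members and ended near or above their median after MCD. The 3 members just inside the threshold, named after F11, B230220B15Rik and Pebp4, had 22.8, 22.9 and 22.9 reads in control and 79.8, 59.5 and 60.0 after MCD. The 3 intervals just outside it, named after H2-Aa, Npnt and Lyn, had 22.6, 22.6 and 22.5 reads in control and 63.3, 88.6 and 63.0 after MCD. The levels on either side were alike, and the threshold divides a continuous range.

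The 18 members that were lower had a control median of 123 reads, against 48.4 in the higher members, and after MCD it was 68.9, a median difference of -0.82. The control level is part of the rule, and open distal intervals without the AP-1 site had the same order, with 111 reads in the lower and 48.9 in the higher ones. The largest loss, at Tmem38b, was from 47.2 to 10.2 reads, a difference of -2.21, and it was the lowest level of any member after MCD. The interval near Cst3, the gene of the secreted protease inhibitor cystatin C, went from 86.6 to 29.0 reads, and the one in the gene Sgcz from 95.7 to 37.8. An interval 84922 bp downstream of the TSS of Ch25h, whose enzyme makes 25-hydroxycholesterol, went from 123 to 60.6 reads. Others of the 18 had as their nearest genes Atp6v0d2, a subunit of the vacuolar proton pump, Trib2, a pseudokinase, and Plxnc1, a semaphorin receptor. Their differences lay from -0.82 to -0.76. Of the 18, 13 were intergenic and 5 intronic, their median distance to a TSS was 48114 bp, and only 6 were at least 2-fold lower.

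**Figure D2:**
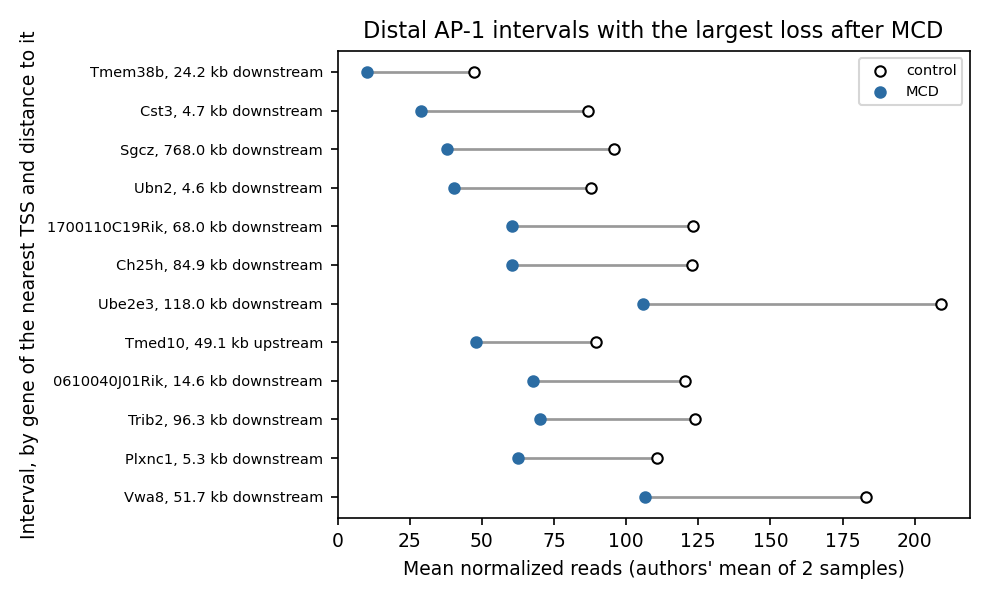
Authors' mean normalized reads in control and after MCD (x axis) for the 12 members with the largest loss after MCD, ordered by difference and labelled on the y axis with the nearest gene. They run from Tmem38b, 47.2 to 10.2 reads, to Vwa8, 183 to 107 reads.

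The bases next to the AP-1 site had different shares in the higher and the lower members, on few sites in the latter. Short windows around the site nearest the interval's centre are shown to let these bases be read, for 6 members with large gains (1 of the 7 largest is not printed here) and then for the 6 with the largest loss, each read in the direction in which the site is TGACTCA (capitals).
Gm11959: gctacagtcaTGACTCAggattctgtg
Basp1: tgaagggataTGACTCAatcattagag
Slfn2: tcttctattcTGACTCAgctgaaacca
Dcbld2: gggtgggcacTGACTCAccctccgcct
Prelid3b: gacagcacagTGACTCAccacgattta
Ccdc148: ttcctgtcgcTGACTCActcgtggttc
Tmem38b: agacacactcTGACTCAgtggccaaga
Cst3: ggatggtgtgTGACTCAtcgggtcatg
Sgcz: gcatagaaagTGACTCAagagagtggg
Ubn2: cttactggttTGACTCAggaaaagtca
1700110C19Rik: tcctggtaccTGACTCAggtgtgccgg
Ch25h: tcttctttttTGACTCAggactttctc
Read this way, Sgcz, Ubn2, Ch25h and Basp1 show a T just before the site or an A just after it. The windows are examples and no count is drawn from them. Over all sites of the members, this held for 8 of 19 sites in the lower members, 42.1%, and for 117 of 815 sites in the higher members, 14.4%. Across the 419224 AP-1 sites of chromosomes 1 to 19 and X it held for 37.5%, so the lower members lie near the genome and the higher members below it. The distal AP-1 intervals under the threshold had 17.1%. With only 19 sites in the lower members, the share there moves by several percentage points with each site.

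Most members carried a single AP-1 site. Of the 658, 504 had 1 site, 137 had 2, 13 had 3, 3 had 4 and 1 had 5, which makes 834 sites. The share with 2 or more sites was 23.4%, against 19.6% of the distal AP-1 intervals under the threshold. The 17 members with 3 or more sites were all higher after MCD, which is close to the 97.3% of all members. Their control median was 82.0 reads and their median difference 0.85, while the medians for members with 1 and 2 sites were 1.13 and 1.12. Members with 3 or more sites thus had a higher median control level and a smaller median difference.

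The sites tended towards the middle of the intervals. The nearest site had a median distance of 33.5 bp from the centre, 216 members (32.8%) had a site within 20 bp of it, and 454 (69.0%) had one within 50 bp. In the intervals under the threshold the last share was 70.7%. The difference hardly varied with this distance. In higher members with the site at 0 to 10, 11 to 20, 21 to 50 and 51 to 100 bp from the centre, the medians were 1.15, 1.08, 1.14 and 1.11. In members with 2 sites, their starts were 7 to 170 bp apart, with a median of 49 bp, and 20 pairs were within 20 bp.

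**Figure D3:**
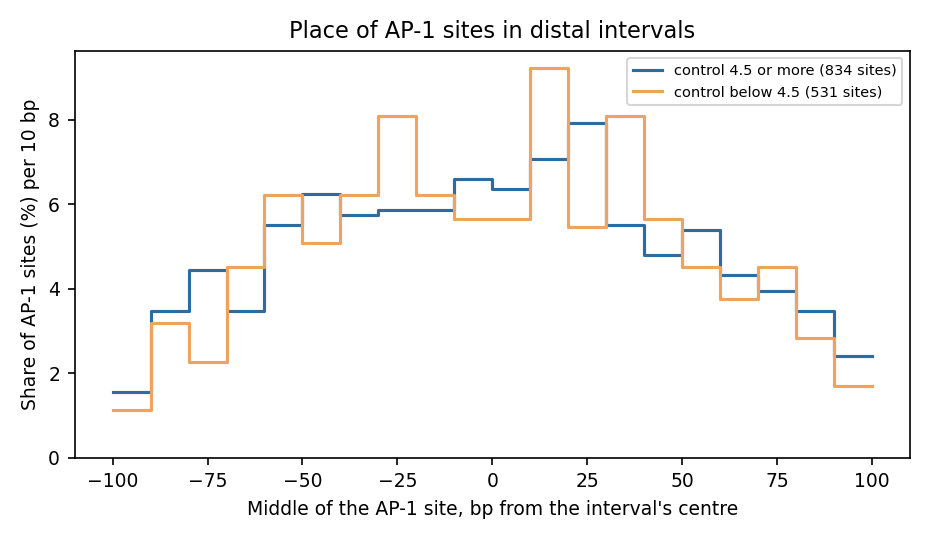
Share of AP-1 sites in percent per 10 bp (y axis) by distance of the site from the interval's centre in bp (x axis), for the 834 sites of the members and the 531 sites of distal AP-1 intervals under the control threshold. In both, the share falls towards the edges of the interval.

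A few members held rows of sites. They are shown because their spacing can be read from the sequence, on the plus strand of GRCm38 with the AP-1 sites in capitals. They lie at chr17:65961601-65961801 (Twsg1, 5 sites), chr3:9983970-9984170 (Fabp5, 4 sites) and chr16:8810835-8811035 (Usp7, 3 sites).
Twsg1: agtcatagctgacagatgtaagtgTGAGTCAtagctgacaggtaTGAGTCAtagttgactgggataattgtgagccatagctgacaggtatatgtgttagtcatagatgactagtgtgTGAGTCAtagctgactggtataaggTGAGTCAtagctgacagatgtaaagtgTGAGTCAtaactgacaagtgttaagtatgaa
Fabp5: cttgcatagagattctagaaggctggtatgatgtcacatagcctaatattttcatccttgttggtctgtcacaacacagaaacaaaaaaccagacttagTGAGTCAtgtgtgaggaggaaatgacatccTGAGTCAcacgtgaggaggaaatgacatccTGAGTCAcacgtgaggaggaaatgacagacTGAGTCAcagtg
Usp7: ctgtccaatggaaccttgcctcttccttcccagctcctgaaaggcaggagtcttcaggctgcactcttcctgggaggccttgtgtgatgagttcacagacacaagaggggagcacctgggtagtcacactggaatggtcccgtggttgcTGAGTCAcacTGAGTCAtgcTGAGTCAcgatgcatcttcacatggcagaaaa
The 4 sites of the Fabp5 interval start every 30 bp and the 3 of the Usp7 interval every 10 bp. Fabp5 encodes a fatty acid binding protein, and its interval went from 42.0 to 136 reads. The Twsg1 interval, near a gene for a secreted BMP regulator, went from 47.0 to 98.3 reads. Soft-masked sequence, which marks repeats in the reference, held 77 of the members' 834 sites, 9.23%, against 22.0% of AP-1 sites across the genome and 12.2% of the sites in intervals under the threshold.

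Single bases next to the site can be set against the genome as well. A T just before the site was found at 5.52% of the members' sites and 19.4% of the genome's, and a G there at 39.8% and 24.3%. An A just after the site was found at 9.95% and 23.1%, and a C there at 28.3% and 20.2%. In the distal AP-1 intervals under the threshold, T before was at 7.72%, G before at 33.3%, A after at 9.79% and C after at 29.0%. Each of these lay on the same side of the genome's share as in the members, so the direction was not particular to the members. The extended bases of the Maf recognition element, TGC before or GCA after, were found at 5.28% of the members' sites and 5.35% of the genome's, which is nearly the same share.

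Other factors' letters were searched on both strands of the 201 bp, and a match is a description of sequence and not of binding. The κB site, the element of NF-κB, was in 35 members (5.32%), the ETS-type PU box GAGGAAGT of PU.1 in 24 (3.65%), and the cAMP response element TGACGTCA, which CREB and ATF proteins bind, in 13 (1.98%). Of all intervals of the table, 7.03%, 7.69% and 1.08% held them. Of the distal AP-1 intervals under the threshold, 6.24%, 2.77% and 0.92% did. A PU box share below that of the table was thus not particular to the members. The runt site TGTGGTT of RUNX factors was in 50 members (7.60%, against 8.87% of the table) and the C/EBP site TTGCNNAA in 74 (11.2%, against 12.3% of the table). The GC box GGGCGG was in 37 (5.62%, against 7.79% of the table), the STAT site TTCNNNGAA in 46 (6.99%, against 6.09% of the table), the E-box CACGTG in 26 (3.95%, against 4.35% of the table), the IRF element in 18 (2.74%, against 2.65% of the table), the NR4A site AAAGGTCA in 5 (0.76%, against 0.97% of the table) and the CArG box of serum response factor in 3 (0.46%, against 1.15% of the table). Among the open distal intervals without AP-1, the PU box was in 7.54% of those higher after MCD and in 16.3% of those lower, both above its share in the members. For κB letters the share was 5.31% in the higher members, against 10.0% in the higher intervals without AP-1. In the lower intervals without AP-1 it was 2.36%.

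**Figure D4:**
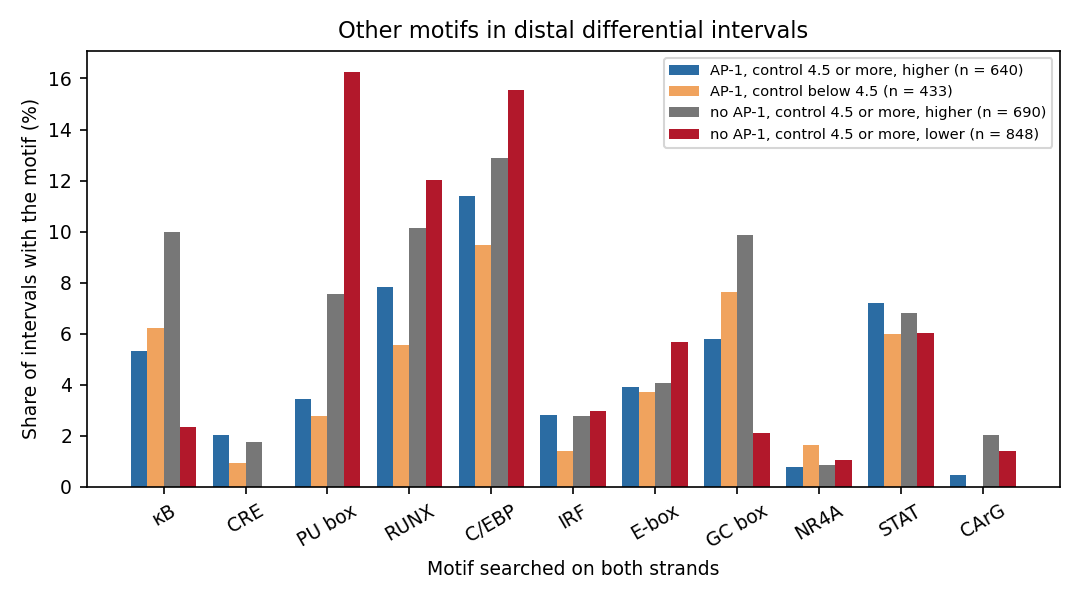
Share of intervals in percent (y axis) that hold each searched motif (x axis), for the higher members, the distal AP-1 intervals under the control threshold, and the open distal intervals without AP-1 that were higher or lower after MCD. The PU box bar is at 3.44% for the higher members and at 16.3% for the lower intervals without AP-1.

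Members with κB letters had differences like those of the others. Of the 35, 34 were higher, with a median difference of 1.12 against 1.13 in higher members without them, and the lower one was the Tmed10 interval, at 89.7 reads in control and 47.9 after MCD. The gap between the AP-1 and κB letters ran from 3 to 138 bp, with a median of 47, and 4 pairs were within 10 bp. The Slfn2 and Hydin intervals, with large differences, and the Il10 member with 3 AP-1 sites are shown with both kinds of site in capitals, on the plus strand of GRCm38, at chr11:83043981-83044181, chr8:110462880-110463080 and chr1:131038113-131038313.
Slfn2: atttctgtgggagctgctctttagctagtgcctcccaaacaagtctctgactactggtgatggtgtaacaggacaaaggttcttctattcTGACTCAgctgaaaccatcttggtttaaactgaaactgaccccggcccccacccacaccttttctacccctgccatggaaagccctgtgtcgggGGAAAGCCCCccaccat
Hydin: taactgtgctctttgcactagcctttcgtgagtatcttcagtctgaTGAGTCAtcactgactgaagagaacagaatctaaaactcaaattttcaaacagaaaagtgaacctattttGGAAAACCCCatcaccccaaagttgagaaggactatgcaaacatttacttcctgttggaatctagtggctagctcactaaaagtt
Il10: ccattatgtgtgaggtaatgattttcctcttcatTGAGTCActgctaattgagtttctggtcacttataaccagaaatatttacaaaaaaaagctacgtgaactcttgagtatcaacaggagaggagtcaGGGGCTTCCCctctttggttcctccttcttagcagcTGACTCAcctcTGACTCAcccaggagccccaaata
The Hydin interval, in an intron of a gene for a ciliary protein, went from 33.5 to 122 reads. In the Il10 interval the 3 AP-1 sites flank the κB letters on both sides, and it went from 155 to 229 reads. Other members with κB letters lay in or near Flt1, a VEGF receptor gene, from 28.5 to 103 reads, Ptprj, a receptor tyrosine phosphatase gene, from 67.9 to 214, and Tnfaip2, from 108 to 254.

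The 13 members with the cAMP response element were all higher, beside 97.3% of all members, and their median difference was 1.25 against 1.12 in members without it. They included Cd53, Prelid3b and the Cd9 interval with the highest control level. Of the 24 members with the PU box, 22 were higher. The median difference of these 22 was 0.96, against 1.14 in higher members without the box. Their control median was 62.2 reads, against 48.4 in all higher members, and differences were smaller at higher control levels. In 4 of the 24 the PU box adjoined the AP-1 site or shared a base with it. One of these lay 4452 bp upstream of Ptprc, the gene of the leukocyte phosphatase CD45, and went from 25.2 to 64.2 reads. An E-box adjoined the AP-1 site in the Fabp5 interval, whose sequence is given above, and in intervals near Ptprj and Sla.

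By the annotation of GENCODE M21, 337 members (51.2%) were intergenic, 305 (46.4%) lay in introns and 16 (2.43%) touched exons. Their median distance to a TSS was 18500 bp, with a 25th to 75th percentile of 9472 to 41564, against 24385 bp for the intervals under the threshold. Within 10 kb of a TSS were 175 members (26.6%) and within 50 kb 526 (79.9%), while 57 lay beyond 100 kb. Members were found on 20 chromosomes, with 64 on chromosome 2, 50 on chromosome 3 and 3 on the X. The whole table had 369, 233 and 36 intervals on these. They were thus spread over the genome. Their median distance to a start site was below that of the less open AP-1 intervals. It was near the 18446 bp of the open distal intervals without the site.

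Another interval of the table lay within 50 kb of 319 members (48.5%), beside 47.7% of all intervals of the table. Of the 669 pairs of a member and such a neighbour, 624 moved in the same direction, 93.3%, beside 90.2% over the whole table. The 8 lower members with a neighbour had 20 of them, all 20 lower and all without the AP-1 site. Of all 866 lower distal intervals of the table, 848 held no AP-1 site. The 20 pairs also come from only 8 members, so nothing is read from this count. Another member was the neighbour of 117 members.

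The 658 members had 578 nearest genes, of which 520 had 1 member, 58 had at least 2 and 15 had at least 3. Distances upstream and downstream are to the nearest of a gene's start sites. The 15 genes with at least 3 were chosen for their number, and all their members were higher, beside 97.3% of all 658. Gfod1 had 5 members of its 7 intervals, over 76261 bp, with control levels from 23.1 to 45.5 reads and levels after MCD from 55.2 to 129. Cited2, a transcription cofactor gene, had 4, the nearest of them 688051 bp upstream of its TSS, so that the gene name there is a label of place only. Myo1e and Atxn1, which encode a class I myosin and ataxin-1, had 4 members each, all within the gene.

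Il10, the gene of the anti-inflammatory cytokine IL-10, had 4 members among its 5 intervals, all downstream of its TSS in 13902 bp of intergenic sequence. They lay 6063, 8176, 18268 and 19764 bp from the TSS. Control levels were 74.7, 25.1, 155 and 30.8 reads in that order, and after MCD they were 143, 60.0, 229 and 69.5. The differences were 0.94, 1.26, 0.57 and 1.17, so the most open of the 4 gained least. Cd9, the gene of another tetraspanin, also had 4, which went from 99.6 to 251, from 81.3 to 148, from 44.9 to 95.8 and from 93.5 to 239 reads. At Cd9 the 2 most open ones had the larger differences, 1.33 and 1.36, against 0.87 and 1.09 in the others. Runx1, the gene of a runt factor of blood cells, had 3 of its 9 intervals among the members. One in intron 6 went from 126 to 225 reads, and 2 upstream ones went from 34.8 to 124 and from 105 to 178.

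**Figure D5:**
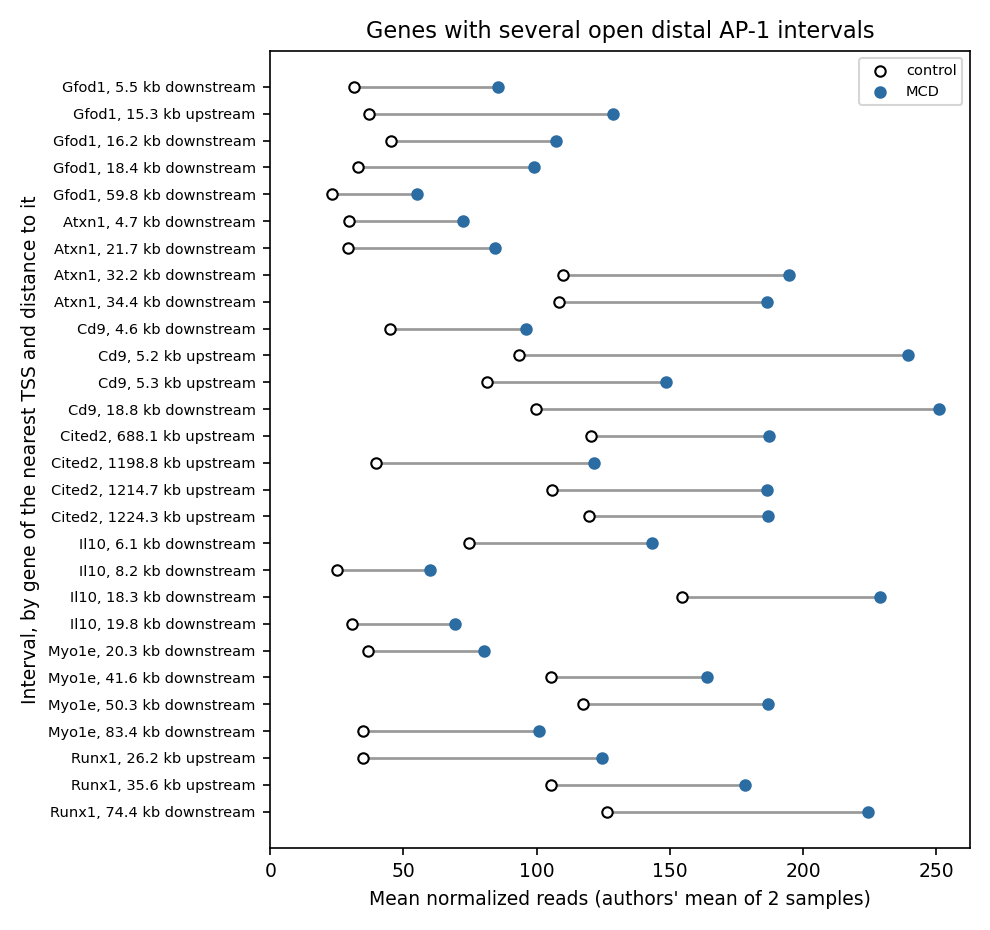
Authors' mean normalized reads in control and after MCD (x axis) for the members of the 6 genes with at least 4 members and of Runx1, labelled on the y axis with the distance to the nearest start site. At Il10 the 4 members run from 25.1 to 155 reads in control and from 60.0 to 229 after MCD.

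Of 191 genes in 9 lists of pathways and cell functions, 31 had a member as nearest gene, with 42 members in all. Each of the 42 was higher after MCD, which is close to the 97.3% of all members. The 42 were 15.8% of the 265 table intervals nearest to listed genes, beside 17.3% for the table as a whole. The lists' members had a median difference of 1.10, beside 1.12 for all members. On both counts the listed genes together lay close to the background. By list, the share of intervals ran from 6.45% for adhesion genes to 28.6% for MAP kinase phosphatases. Not every listed gene had an interval in the table. Those with one were 10 of 18 AP-1 family, 8 of 17 NF-κB, 7 of 14 phosphatase and 13 of 22 immediate early genes. They were also 17 of 32 cytokine, 12 of 22 macrophage identity, 12 of 22 adhesion, 10 of 18 chromatin and 6 of 26 sterol genes. Of the table's 2582 nearest genes, 578 had a member.

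Members near genes of the AP-1 and related leucine zipper family numbered 4, at 4 of 18 listed genes. The Bach1 and Bach2 intervals, in genes for repressors that bind AP-1-like sites, went from 55.9 to 143 and from 88.2 to 164 reads. The interval in Nfe2l2, which encodes the oxidative stress factor NRF2, went from 44.5 to 121, and the one near Batf3, a partner of Jun proteins, from 66.9 to 135. No listed Jun or Fos gene had a member. In the NF-κB list 3 of 17 genes had 4 members, and each encodes a regulator of the pathway. Tnfaip3, whose product A20 edits ubiquitin chains, had 1 at 62414 bp upstream, from 105 to 180 reads. Tnip1, a partner of A20, had 2, from 95.7 to 221 and from 32.6 to 84.4, and Nfkbiz, a nuclear IκB protein gene, had 1 with κB letters, from 48.4 to 98.2.

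MAP kinases activate AP-1, and dual-specificity phosphatases switch them off. In that list 4 of 14 genes had 6 members. Dusp1 had 2, which went from 139 to 212 and from 41.5 to 118 reads, both within a long annotated transcript of the gene, and another interval in intron 3 of that transcript, assigned to Ergic1 by its nearest TSS, went from 132 to 208. Dusp4 had 2, from 78.7 to 176 and from 54.3 to 167. Dusp2 and Dusp5 had 1 each, from 107 to 173 and from 40.4 to 90.6. Of 22 immediate early genes, 6 had 8 members. Btg1, an antiproliferative gene, had 2, from 41.1 to 138 and from 37.8 to 87.3, and Zfp36l1, which encodes an mRNA decay factor, also had 2. Klf4, Klf6, Egr2 and Ier5 had 1 each. In these lists every named member had at least 37.8 reads in control other than Egr2, at 26.0.

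Cytokine and growth factor genes had 9 members at 6 of 32 genes. Beside the 4 of Il10, Il1a, which encodes interleukin-1α, had 1 from 92.0 to 197 reads, and Il1rn, which encodes the antagonist of its receptor, 1 from 74.0 to 147. Csf1, the gene of the macrophage growth factor, had 1 from 33.6 to 75.4, and Ereg, which encodes the EGF receptor ligand epiregulin, 1 from 42.5 to 102. Of 22 macrophage identity genes, only Runx1 and Fcgr1, the gene of a high-affinity IgG receptor, had members. The Fcgr1 interval went from 52.4 to 98.4 reads. Cd44, the hyaluronan receptor gene, was the only one of 22 adhesion genes with members, which went from 59.0 to 135 and from 24.1 to 63.3. Among 18 chromatin regulators, Kdm7a, a histone demethylase gene, had 1 member from 53.5 to 116, and Crebbp, a histone acetyltransferase gene, 1 from 53.5 to 97.9. Smarca2, a remodelling ATPase gene, had 1 from 25.2 to 79.9. Of 26 sterol genes, 1 had a member.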

How the data were processed

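ATAC-seq was done on 2 control and 2 MCD samples. The authors trimmed reads, aligned them to GRCm38, removed duplicates with Picard, called peaks and compared conditions with DiffBind, using DESeq2 and edgeR. The submitters' processing notes name FastQC, cutadapt 2.6, Bowtie2 2.4.4, MACS3 3.0.0, deepTools 3.5.1, DiffBind and R 4.0.2, while the paper's methods name MACS2. How reads were normalized, whether they were shifted for the Tn5 offset and whether peaks were called per sample is not given in the sources used here. The deposited table holds the authors' log2 mean of normalized reads per condition, a log2 fold change, and its p-value and FDR. The deposited FDR was under 0.05 in all 3812 rows, and the deposited fold change, p-value and FDR entered no result.

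Depth per sample is unknown and no sample-level value was used (columns of per-sample values: 0), so the tests planned on samples were not run and all results are descriptions. Other sample scalings were not possible. Each interval took the gene of its nearest TSS among GENCODE M21 transcripts with an Entrez identifier. Sequences of the GRCm38 reference (RefSeq) were extracted using samtools 1.23.1 and pysam 0.24.0. Motifs were matched on both strands, a palindrome counted once. Calculations used Python 3.11.15, numpy 2.4.6 and pandas 2.3.3, and the procedures were tested on simulated data. The members, motifs and gene lists were chosen with earlier results of these data known. Intervals were named by rule: the 10 highest control levels, the 10 largest and 5 smallest gains, up to 12 lower members, 3 on each side of the threshold, members with κB letters, at least 3 AP-1 sites or an adjoining PU box or IRF element, genes with at least 3 members, and members at listed genes. The intervals near Ptprj and Sla with an E-box, those with close C/EBP letters and exonic ones were singled out after their values were seen. Sterol genes are given as a count.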

Additional observations from a re-analysis of the deposited data

How the results depend on the processing

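Values were recomputed under 10 other settings. All of these redefined the members, except the search of the central 100 bp for κB letters and the PU box, which left the members unchanged. Of 65 recomputed values, 56 stayed close. Close means within 1.5 times for a count of members and within their interval or spread for other values. The other 9 moved further, and none reversed. The 95% interval is taken over the members, which are not replicates. Apart from the setting that used the TSS of protein-coding genes, each redefined set contained all members or was a part of them. Values were thus partly bound to stay close, and nothing is read from the count. A cut on the difference, or on the control level that enters it, acts directly on the median difference. A shorter search window can only lower a motif share. The median difference was 1.2 with a control level of 4 or more (788 members) and 1.03 with 5 or more (512 members). The share of intergenic members was 57.8% at more than 10 kb from a TSS (483 members). The share with 2 or more AP-1 sites was 13.7% when sites within 50 bp of the centre were counted (454 members), and κB letters were in 2.89% of members when only the central 100 bp were searched. Requiring an absolute difference of at least 1 kept 432 members, with a median difference of 1.26, 98.6% of them higher and the PU box in 2.31%. The number of lower members ranged from 6 to 19. Requiring an A or G before the site or a C or T after it kept 605 members, of which 11 were lower. No paired analysis was possible because the columns carry condition means and no replicate numbers, and for the same reason leaving out each replicate was not run. Since depth per sample is unknown, no limit of detection can be given.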

Other observations

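Of the members, 16 touched exons, 7 of them coding and 5 noncoding, 2 in a 3′ untranslated region and 2 in both a 3′ untranslated region and coding sequence. One of them lay in exon 10 of Rel, the gene of the NF-κB subunit c-Rel, in its 3′ untranslated region. Its nearest TSS is that of Pus10, so the NF-κB list above does not count it. It went from 24.8 to 81.8 reads and held a C/EBP site TTGCNNAA 10 bp from its AP-1 site. Of the 321 members inside a gene, 23 lay in a gene other than the one with the nearest TSS.

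Some members held a second factor's letters within 10 bp of the AP-1 site, and all of those examined (PU box, IRF element, E-box, κB and C/EBP sites) were higher after MCD, which is close to the 97.3% of all members. The C/EBP letters were this close in 9 members. They included intervals near Nfil3, the gene of a leucine zipper repressor, from 88.7 to 202 reads, and Ccr1, a chemokine receptor gene, from 27.4 to 69.0. The IRF element was this close in 3 members, near Rab39, Gipc2 and Tnfrsf17, which went from 77.2 to 177, from 103 to 173 and from 51.1 to 141 reads. Such pairs were picked from many possible spacings, and no test of their number was made.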
